A study of Mus musculus with 3 samples.

Results

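The 9 genes described here, *Fth1*, *Ftl1*, *Slc40a1*, *Slc11a1*, *Slc11a2*, *Tfrc*, *Lcn2*, *Ireb2* and *Aco1*, encode proteins that store, move, scavenge or sense iron. They were taken by gene symbol from the 32285 genes of the count matrices, and were chosen with earlier results of these data known. Each symbol named 1 row, and all 9 reached 10 counts per 1000000 (CPM) in at least 1 library, as did 8103 genes in all. They were measured in bone marrow derived macrophages (BMDMs) of female C3H/HeN mice aged 6 to 8 weeks. BMDMs are macrophages grown in culture from marrow cells with a conditioned medium. The untreated cells (Ctrl) received PBS, LP1 cells received purified *Borrelia burgdorferi* lipoproteins (*Bb*LP) at 1 µg/mL for 1 hour, and LP4 cells received the same dose for 4 hours. By the methods of the study, PBS-treated cells were collected at 4 hours. Between Ctrl and LP1, treatment and time of collection therefore cannot be told apart. The study's general culture protocol pooled marrow of several mice, and for these libraries it describes BMDMs of several mice treated independently. The cells of several wells were pooled before capture, so each condition is 1 library without a replicate. All intervals below are at 95%, are exact and cover counting error only, and no test between libraries was run.

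Macrophages handle much of the iron in the body, which they take from engulfed red cells and from transferrin. Ferritin, a shell of heavy (FTH1) and light (FTL1) chains, holds iron inside the cell. Ferroportin, the product of *Slc40a1*, is the exporter of iron. NRAMP1 (*Slc11a1*) carries metal ions out of the phagosome, DMT1 (*Slc11a2*) carries ferrous iron out of the endosome, and the transferrin receptor (*Tfrc*) brings transferrin into it. Lipocalin 2 (*Lcn2*) is a secreted protein that binds bacterial siderophores. The iron regulatory proteins IRP1 (*Aco1*) and IRP2 (*Ireb2*) bind stem-loops in mRNA, called iron-responsive elements, when iron is low. Bound in a 5′ untranslated region (UTR) they hold back translation, and bound in the 3′ UTR of *Tfrc* they keep the mRNA from decay.

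The iron-responsive elements are shown because they separate the genes into those with a match in the 5′ UTR, those with a match in the 3′ UTR and those with none. A stem-loop was searched for in the UTRs of GENCODE vM21 transcripts on GRCm38 (mm10), on the transcript strand. It had an unpaired C, an upper stem of 5 paired bases and the loop CAGTGN, with no G at the last position. Most of the 5 outer bases on each side, the lower stem, also had to pair. Capitals mark the loop. The reference genome is of C57BL/6J mice, not of C3H/HeN.
*Fth1*, 5′ UTR, chr19:9982733-9982759, plus strand: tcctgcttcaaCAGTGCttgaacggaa
*Ftl1*, 5′ UTR, chr7:45459780-45459806, minus strand: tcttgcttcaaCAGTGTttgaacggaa
*Slc40a1*, 5′ UTR, chr1:45925466-45925492, minus strand: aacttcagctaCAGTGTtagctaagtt
*Tfrc*, 3′ UTR, chr16:32631220-32631246, plus strand: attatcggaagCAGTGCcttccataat
*Tfrc*, 3′ UTR, chr16:32631599-32631625, plus strand: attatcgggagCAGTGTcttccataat
*Tfrc*, 3′ UTR, chr16:32631664-32631690, plus strand: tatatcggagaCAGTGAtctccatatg
*Tfrc*, 3′ UTR, chr16:32631711-32631737, plus strand: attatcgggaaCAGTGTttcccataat

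The stem-loop stood in a UTR of 33 of 21901 genes with a protein-coding transcript (0.151%), and of 249 (1.14%) when 4 of 5 upper stem pairs sufficed. Among the iron genes it occurred once in *Fth1*, *Ftl1* and *Slc40a1* and 4 times in *Tfrc*. The UTRs of *Slc11a1*, *Slc11a2*, *Lcn2*, *Ireb2* and *Aco1* held no match to these letters, which says nothing of other forms of the element.

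After the limits on cells, 6071 Ctrl, 5065 LP1 and 4670 LP4 cells were left of 16281 barcodes, with medians of 5133, 9343 and 11784 unique molecular identifiers (UMIs) per cell. Levels are UMIs of a gene per 1000000 UMIs of the library; a UMI counts a transcript by its 3′ end and is not scaled by gene length. All 10 macrophage markers were detected, at a summed 10637 to 11962 CPM. In Ctrl the 15 neutrophil markers summed to 592 CPM, beside 493 in LP1 and 795 in LP4, and the 6 stromal markers to 4.29, 5.85 and 19.7. Of the neutrophil markers, *Mmp8* was at 174, 174 and 184 CPM, while *Ly6g*, *Retnlg* and *Cxcr2* stayed under 1 CPM. The neutrophil sum is thus not read as a measure of neutrophils. The 7 erythroid markers, which would mark red cells left from marrow, stayed under 1 CPM in sum. Barcode sequences shared by a pair of libraries numbered 10 for Ctrl with LP1, 7 for Ctrl with LP4 and 4 for LP1 with LP4. The cells fell into 6 clusters. Clusters A (4903 cells), B (4788) and C (4777) each had at least 5 of the 10 macrophage markers in 50% or more of their cells, although *Itgax*, from the dendritic cell list, was among the 10 leading genes of cluster A, so A, B and C are compared one by one. Cluster D (971 cells) was cycling-like, E (282) stromal-like and F (85) neutrophil-like. Macrophage markers in 50% or more of the cells numbered 7 in D, 5 in E and 1 in F. Clusters A to E had at least 50 cells in every library, and F had 32, 25 and 28.

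The comparisons address how the RNA of these genes differs after 1 and 4 hours of *Bb*LP. Between Ctrl and LP1 none of the 9 genes was past the 1.5-fold limit, in a comparison in which 4.23% of all 8103 genes were at least 1.5-fold higher and 2.83% at least 1.5-fold lower. Between Ctrl and LP4, *Slc11a1*, *Slc11a2* and *Lcn2* were at least 1.5-fold higher, 3 of 9, against 20.0% of all genes, and *Slc40a1* was at least 1.5-fold lower, 1 of 9, against 23.1% of all genes. Between LP1 and LP4, *Slc11a2* and *Lcn2* were at least 1.5-fold higher, against 16.3% of all genes, and *Slc40a1* was at least 1.5-fold lower, against 18.5%. With 9 genes, these counts are not read as a difference from all genes. The median log2 ratio of the 9 genes was 0.34 for LP4 over Ctrl, beside -0.08 over all genes tested.

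**Figure D1:**
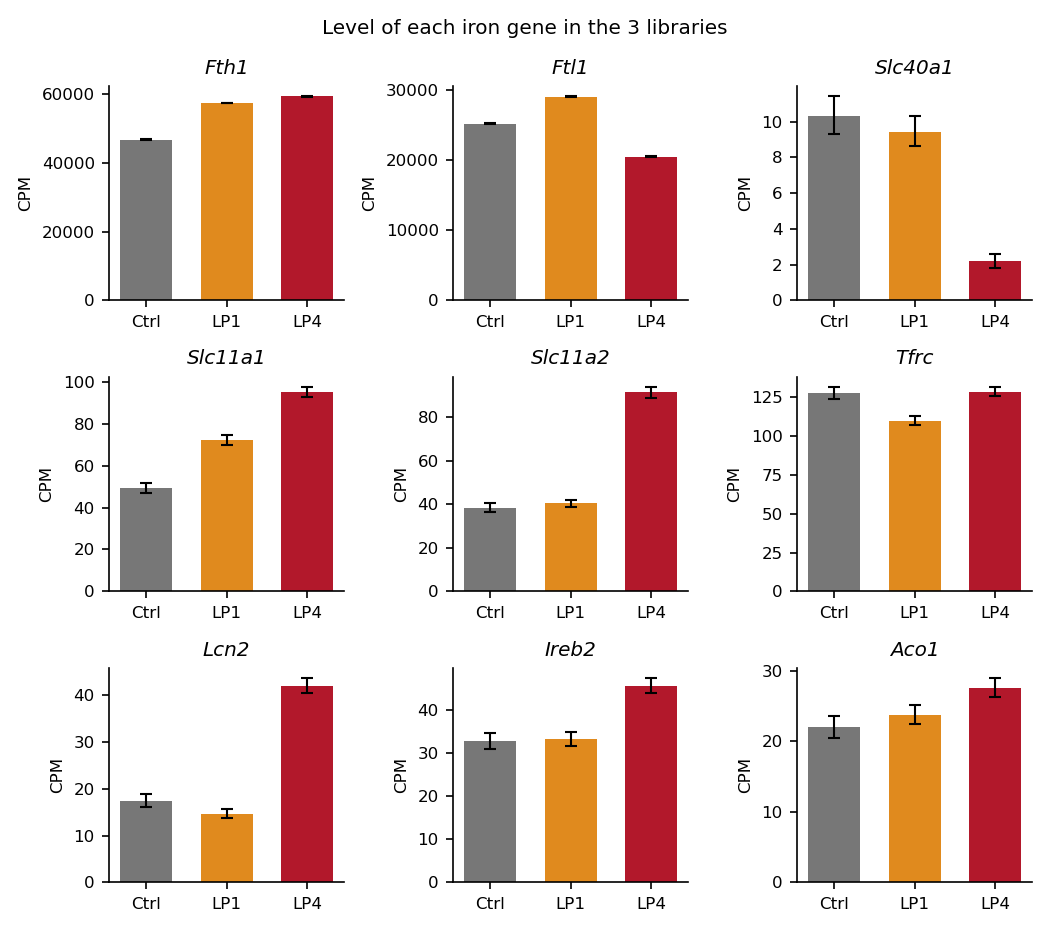
Level of each gene (y axis, CPM, from 0) in the Ctrl, LP1 and LP4 libraries, with exact Poisson 95% intervals that cover counting error only; each bar is 1 library. *Slc40a1* is low in LP4 alone, at 2.18 CPM, and *Slc11a2* and *Lcn2* are high in LP4 alone. *Slc11a1* is higher in LP1 than in Ctrl and higher in LP4 than in LP1.

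The heavy chain of ferritin, *Fth1* (ENSMUSG00000024661, chr19:9980598-9985098), held more UMIs than any other gene in every library. Its level was 46665 CPM in Ctrl (46594 to 46736), then 57360 in LP1 and 59241 in LP4, so that 4.67%, 5.74% and 5.92% of all UMIs came from this gene. The light chain, *Ftl1* (ENSMUSG00000050708, chr7:45457944-45459884), was second in each, at 25180, 29055 and 20498 CPM. Both chains were thus higher in LP1 than in Ctrl, and in LP4 the heavy chain stayed high while the light chain lay below its Ctrl level. The log2 ratio of LP4 over Ctrl was 0.34 for *Fth1* and -0.30 for *Ftl1*, neither past 1.5-fold. With the libraries scaled by median-of-ratios, which moved the median of all genes by 0.21, *Ftl1* was at -0.09. A near-identical copy, *Ftl1-ps1*, counted as a gene of its own, held 3782, 6063 and 6926 UMIs, under 1% of the UMIs of *Ftl1*, and how reads were split between them was not tested.

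The ratio of the 2 chains within a library does not depend on the scaling between libraries. It was 0.540 *Ftl1* UMIs per *Fth1* UMI in Ctrl (0.538 to 0.541), then 0.507 in LP1 and 0.346 in LP4. The LP4 library was thus the one with fewest light chain UMIs per heavy chain UMI. The same order of LP4 below Ctrl was found in each of clusters A to E. In cluster B the ratio was 0.526, 0.501 and 0.281 from Ctrl to LP4, and in cycling-like cluster D it was 0.636, 0.589 and 0.400. In single LP4 cells with at least 20 UMIs of the 2 genes together, *Ftl1* made up a median of 24.8% of them (5th to 95th percentile 14.3 to 39.2), against 35.7% in Ctrl (22.8 to 54.3), so the cells of the 2 libraries overlapped.

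Neutrophil-like cluster F differed from the others in its ferritin. It held 2.20 *Ftl1* UMIs per *Fth1* UMI in Ctrl (1.92 to 2.51) and 2.15 in LP1 (1.92 to 2.40), but 0.217 in LP4 (0.203 to 0.232). Its *Fth1* level was 3107, 3208 and 21023 CPM in the 3 libraries, on 325, 452 and 5039 UMIs. Over its 28 LP4 cells, *Fth1* ranged from 9.01 to 1002 UMIs per 10000 with a median of 137, against a range of 0 to 203 and a median of 27.5 over its 32 Ctrl cells. The 75th percentile of these LP4 cells, at 446 UMIs per 10000, lay near the medians of clusters B to E, from 460 to 541. In the same LP4 cells *Ftl1* had a median of 47.0 and a highest value of 95.5 UMIs per 10000. The *Ftl1* medians of clusters A to E in LP4 were higher, from 122 to 250. Whether some of these barcodes held 2 cells was not tested, since the doublet caller marked only 2 barcodes of all libraries. In the large clusters *Fth1* was highest in cluster A in every library, at 61919, 76346 and 72792 CPM, against 38354 to 45027 CPM in clusters B to E in Ctrl.

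**Figure D2:**
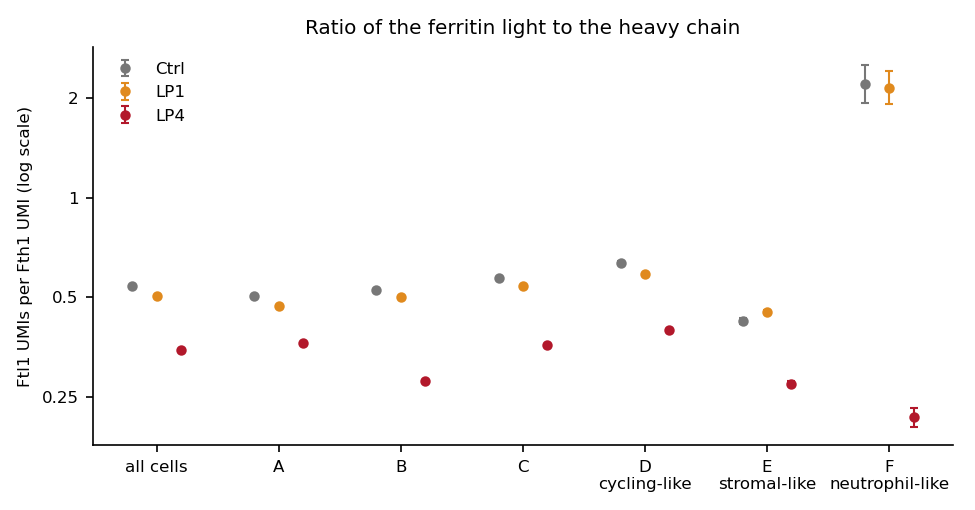
*Ftl1* UMIs per *Fth1* UMI (y axis, log scale) over all cells and in each cluster, with exact 95% intervals for counting error; grey, orange and red points are the Ctrl, LP1 and LP4 libraries. The LP4 point is the lowest of each cluster, and cluster F, of 32, 25 and 28 cells, stands above 2 in Ctrl and LP1 and at 0.217 in LP4.

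The exporter *Slc40a1* (ENSMUSG00000025993, chr1:45908068-45926523) had the largest LP4-to-Ctrl log2 ratio by size of the 9 genes over whole libraries; without cluster F that of *Lcn2* was larger, 2.80 against -2.35. Ctrl held 10.3 CPM (9.28 to 11.4, 368 UMIs), LP1 9.43 (8.62 to 10.3, 495 UMIs) and LP4 2.18 (1.83 to 2.58, 134 UMIs). The Ctrl and LP1 intervals overlapped and the LP4 interval lay below both. The log2 ratio was -2.24 for LP4 over Ctrl (-2.54 to -1.95), lower than that of 98.7% of all genes tested, and -0.13 for LP1 over Ctrl (-0.33 to 0.07). *Slc40a1* reached the 10 CPM minimum through Ctrl alone.

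Cells with a UMI of *Slc40a1* were few. With each cell thinned to 2000 UMIs, a UMI was left in 2.30% of the cells in Ctrl, then 2.16% in LP1 and 0.670% in LP4 (0.456 to 0.950), and unthinned the shares were 5.04%, 6.95% and 2.46%. In neutrophil-like cells the thinned shares were 14.3%, 9.52% and 10.7% of 21, 21 and 28 cells, with intervals from 1.17 to 36.3%, so these cells give no lower level to read the others against. Among clusters A to E, cluster B, led by *Egr3*, *Nr4a3* and *Apoe*, had the highest level in every library, with 24.9 CPM for Ctrl (21.5 to 28.6), 29.1 for LP1 (25.9 to 32.5) and 4.09 for LP4 (3.09 to 5.31). The next, stromal-like cluster E, at 18.1, 20.1 and 3.91 CPM, had intervals that overlapped those of B, while A, C and D stood between 3.36 and 7.09 CPM in Ctrl. The level was lower in LP4 than in Ctrl in 5 of 5 clusters, by log2 ratios from -2.60 in B to -1.71 in D, the latter on 11 and 5 UMIs.

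NRAMP1, encoded by *Slc11a1* (ENSMUSG00000026177, chr1:74375195-74386062), was the only one of the 9 genes that was higher by more than 0.3 on the log2 scale in each of the 3 comparisons. Ctrl had 49.3 CPM (47.0 to 51.6), LP1 72.3 (70.0 to 74.6) and LP4 94.9 (92.5 to 97.4), and the 3 intervals did not overlap. The log2 ratio of LP1 over Ctrl was 0.55 (0.47 to 0.64), just under the 1.5-fold limit of 0.58 and higher than 95.1% of genes tested. That of LP4 over Ctrl was 0.95 (0.87 to 1.02). The thinned share of cells with a UMI was 9.55%, 13.3% and 16.2%, in the same order as the CPM, and the unthinned share was 23.7%, 47.6% and 61.0%. In thinned neutrophil-like cells it was found in 0 of 21 Ctrl cells, 0 of 21 LP1 cells (each up to 16.1%) and 3.57% of 28 LP4 cells. *Slc11a1* was higher in LP1 than in Ctrl, and in LP4 than in LP1, in each of clusters A to E.

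DMT1, encoded by *Slc11a2* (ENSMUSG00000023030, chr15:100387898-100425072), had 38.6 CPM in Ctrl (36.5 to 40.6), then 40.4 in LP1 (38.7 to 42.2), and 91.4 CPM by LP4 (89.1 to 93.9). The Ctrl and LP1 intervals overlapped and LP4 lay apart, 2.37-fold above Ctrl, with a log2 ratio of 1.25 (1.16 to 1.33). Its thinned share of cells was 6.71%, 7.64% and 17.2% (unthinned 18.9%, 32.6% and 65.7%), with no UMI left in 21, 21 and 28 thinned neutrophil-like cells. The 2 transporters of this family thus differed in their pattern over the libraries. *Slc11a2* UMIs per *Slc11a1* UMI numbered 0.783 in Ctrl (0.729 to 0.840), 0.559 in LP1 (0.530 to 0.590) and 0.964 in LP4 (0.929 to 1.00). The higher LP4 ratio was not found in every cluster. In Ctrl and LP4 it was 0.757 and 0.742 in A, 0.697 and 1.20 in B, 0.829 and 1.05 in C, and 0.831 and 1.04 in D. In E it was 1.68 (0.926 to 3.14) and 0.828 (0.610 to 1.12). Across clusters, the log2 ratio of *Slc11a2* in LP4 over Ctrl was 0.97 in A, 1.59 in B (1.40 to 1.78), 1.25 in C and 1.53 in D, and 0.28 (-0.32 to 0.92) in stromal-like cluster E, on 32 and 82 UMIs.

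**Figure D3:**
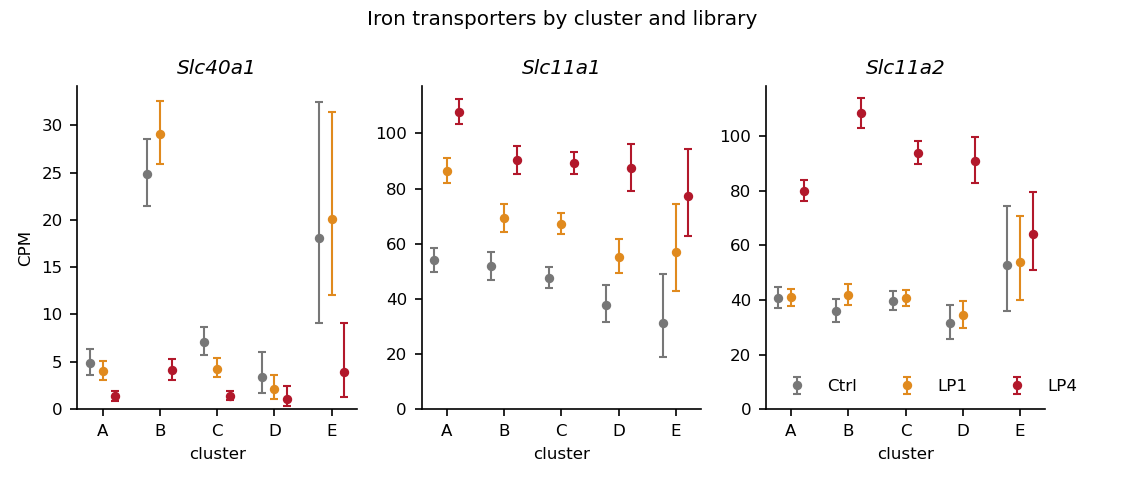
CPM (y axis, from 0) of the exporter *Slc40a1* and of the transporters *Slc11a1* and *Slc11a2* in clusters A to E (x axis), with exact Poisson 95% intervals for counting error; grey, orange and red points are Ctrl, LP1 and LP4. Of the clusters drawn, *Slc40a1* is highest in B in Ctrl and LP1 and low in each in LP4. *Slc11a2* stands apart in LP4 in clusters A to D.

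The transferrin receptor *Tfrc* (ENSMUSG00000022797, chr16:32608920-32632794) had 127 CPM in Ctrl (124 to 131), then 110 in LP1 (107 to 113) and 128 in LP4 (126 to 131). By CPM over whole libraries only LP1 stood apart, with a log2 ratio of -0.22 to Ctrl (-0.27 to -0.16), and LP4 over Ctrl was 0.01 (-0.04 to 0.06). This depended on the scaling. LP4 over Ctrl was 0.18 under TMM and 0.22 under median-of-ratios scaling, and LP1 over Ctrl was -0.14 under each. The thinned share of cells with a UMI was 19.7%, 16.5% and 19.8%. Among clusters A to E, *Tfrc* was highest in A, at 148, 129 and 157 CPM, and lowest in stromal-like cluster E, at 29.7, 39.1 and 25.8 CPM. The log2 ratio of LP4 over Ctrl was 0.09 in A, -0.20 in B (-0.32 to -0.07), 0.01 in C and 0.06 in D. In E it was -0.20 (-1.07 to 0.71). Neutrophil-like cluster F had 47.8, 71.0 and 179 CPM, the last on 43 UMIs (130 to 242). Set against the exporter, there were 12.4 *Tfrc* UMIs per *Slc40a1* UMI in Ctrl (11.1 to 13.8), 11.6 in LP1 (10.6 to 12.8) and 58.8 in LP4 (49.6 to 70.3).

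The genes of both iron regulatory proteins stayed within 1.5-fold by CPM in all 3 comparisons. *Ireb2* (ENSMUSG00000032293, chr9:54863789-54912530) was at 32.8, 33.2 and 45.7 CPM for Ctrl, LP1 and LP4, an LP4-to-Ctrl log2 ratio of 0.48 (0.38 to 0.58). This ratio was past the limit under TMM scaling, at 0.65, and under median-of-ratios scaling, at 0.68. *Aco1* (ENSMUSG00000028405, chr4:40143081-40198338) was at 22, 23.8 and 27.6 CPM, a log2 ratio of 0.33 (0.21 to 0.45). For both, LP4 was higher than Ctrl in each of clusters A to E and the intervals of Ctrl and LP1 overlapped. The interval of the LP4-to-Ctrl ratio, however, included 0 in cluster A for *Ireb2* and in B, D and E for *Aco1*. The *Ireb2* UMIs per *Aco1* UMI were 1.49 in Ctrl (1.36 to 1.64), 1.40 in LP1 and 1.65 in LP4 (1.56 to 1.76), with overlapping intervals in Ctrl and LP4.

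**Figure D4:**
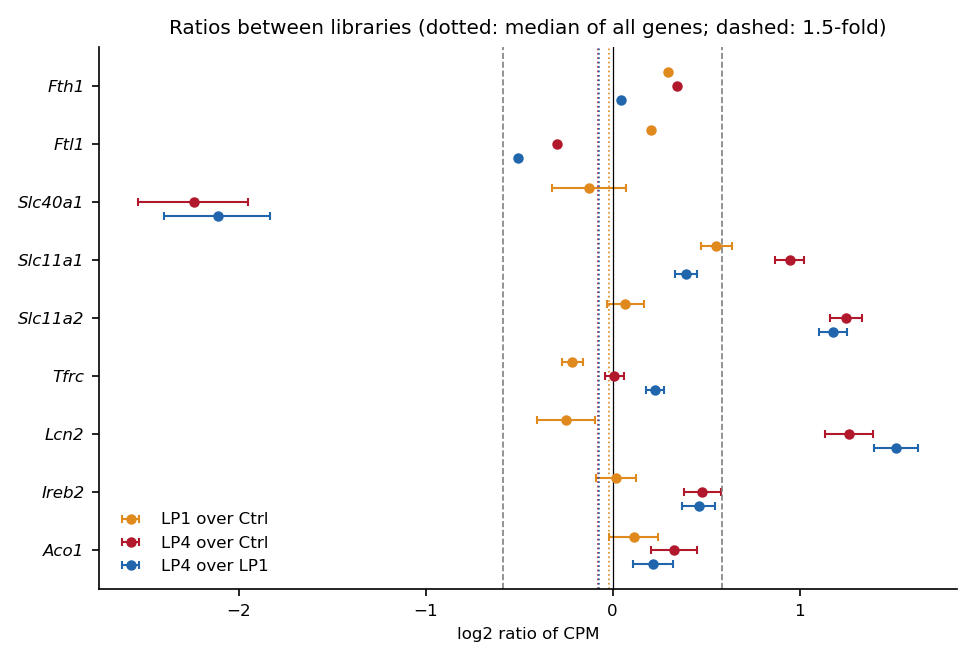
log2 ratios of CPM (x axis) for LP1 over Ctrl (orange), LP4 over Ctrl (red) and LP4 over LP1 (blue), with exact 95% intervals for counting error; dotted lines are the medians of all genes tested in each comparison and dashed lines mark 1.5-fold. No orange point lies past a dashed line, and *Slc40a1* at -2.24 and *Lcn2* at 1.26 bound the red points.

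Lipocalin 2, *Lcn2* (ENSMUSG00000026822, chr2:32384633-32388252), had 17.5 CPM in Ctrl (16.1 to 18.9, 624 UMIs), then 14.7 in LP1 (13.7 to 15.8, 771 UMIs) and 42.0 in LP4 (40.4 to 43.6, 2578 UMIs). As a whole library, LP4 was 2.40-fold above Ctrl, with a log2 ratio of 1.26 (1.14 to 1.39). Most of these UMIs, however, were held by the few cells of neutrophil-like cluster F, which had 87.3% of the *Lcn2* UMIs in Ctrl, with 97.7% in LP1 and 63.3% in LP4. Within F, Ctrl held 5211 CPM (4783 to 5667), LP1 5344 (4969 to 5740) and LP4 6813 (6487 to 7152), an LP4-to-Ctrl log2 ratio of 0.39 (0.25 to 0.53).

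Outside F, the 3 libraries differed far more. Ctrl held 2.22 CPM there (1.76 to 2.77, 79 UMIs in 21 of 6039 cells), LP1 0.344 (0.204 to 0.544, 18 UMIs in 12 of 5040 cells) and LP4 15.5 (14.5 to 16.5, 945 UMIs in 415 of 4642 cells). In Ctrl, 10 cells held 68 of the 79 UMIs, whereas in LP4 the 10 highest cells held 15.9% of them. With cluster F left out, an alternative chosen after seeing the data, the log2 ratio was 2.80 for LP4 over Ctrl, 5.49 for LP4 over LP1 and -2.69 for LP1 over Ctrl, the last resting on those few Ctrl cells. After thinning, the share of cells outside F with a UMI of *Lcn2* was 0.186% in Ctrl, then 0.0994% in LP1 and 2.37% in LP4 (1.95 to 2.85), against 81.0%, 95.2% and 92.9% inside F. Median depth before thinning was 5141, 9361 and 11799.5 UMIs outside F and 2940, 5891 and 9261.5 inside.

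*Lcn2* was also set against *S100a9* and *S100a8*, calcium-binding protein genes of neutrophils from the marker list. For *S100a9*, inside F there were 0.115 *Lcn2* UMIs per *S100a9* UMI in Ctrl (0.105 to 0.126), 0.112 in LP1 and 0.102 in LP4 (0.0970 to 0.107). In LP4 the ratio was 10.9 in cluster A (7.77 to 15.7), 6.43 in B (4.04 to 10.7), 6.85 in C (4.77 to 10.1) and 1.52 in D (1.19 to 1.96). Clusters B and C also stood above F in Ctrl, at 0.240 (0.154 to 0.362) and 0.450 (0.309 to 0.646). These Ctrl ratios rest on very few cells. In B, 1 cell held 23 of the 29 *Lcn2* UMIs, and in C 1 cell held 26 of the 45. The intervals count UMIs and do not cover the spread between cells, so these 2 ratios are not read as a difference from F. Against *S100a8* the LP4 ratios were closer to that of F, at 0.688 in A, 0.333 in B, 0.561 in C and 0.582 in D, beside 0.157 in F (0.149 to 0.165). In Ctrl the *S100a8* ratio of B was 0.104 (0.0681 to 0.152) and that of C 0.129 (0.0923 to 0.176), with intervals that held the 0.101 of F. That of A lay lower, at 0.0134 (0.00363 to 0.0347), on 4 *Lcn2* UMIs. Outside F, however, *S100a8* was found with far less *S100a9*. In Ctrl the UMIs of *S100a8* and *S100a9* were 298 and 8 in A, 280 and 121 in B, and 349 and 100 in C. In F they were 5410 and 4725, and in A in LP4 they were 586 and 37. The *S100a8* ratios of clusters A to D are thus not read as a likeness to F. Inside F the *S100a8* ratio was 0.101, 0.167 and 0.157 in Ctrl, LP1 and LP4. Against *Ngp*, another listed neutrophil marker, the ratio inside F was 0.472, 0.466 and 0.655. The part of free RNA in the *Lcn2* UMIs outside F was not tested. In the 736 LP4 cells outside F without a UMI of any of the 15 neutrophil markers, *Lcn2* was at 16.3 CPM (13.6 to 19.5, 125 UMIs), against 8 UMIs in 2446 such cells of Ctrl and 3 UMIs in 1430 of LP1. The 125 UMIs lay in 56 of the 736 cells, and 10 of these cells held 64 of them. Most cells outside F, of 6039 in Ctrl, 5040 in LP1 and 4642 in LP4, held a marker UMI and were left out here. The 736 LP4 cells had a median depth of 9528 UMIs, against 11799.5 for all LP4 cells outside F. By cluster, LP4 levels of *Lcn2* outside F were highest in cycling-like cluster D, at 34.0 CPM (29.0 to 39.5), and in A, at 20.1 CPM (18.2 to 22.2), with C at 10.9, B at 9.86 and E at 6.25 CPM. In D, 10 cells held 100 of the 166 UMIs.

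**Figure D5:**
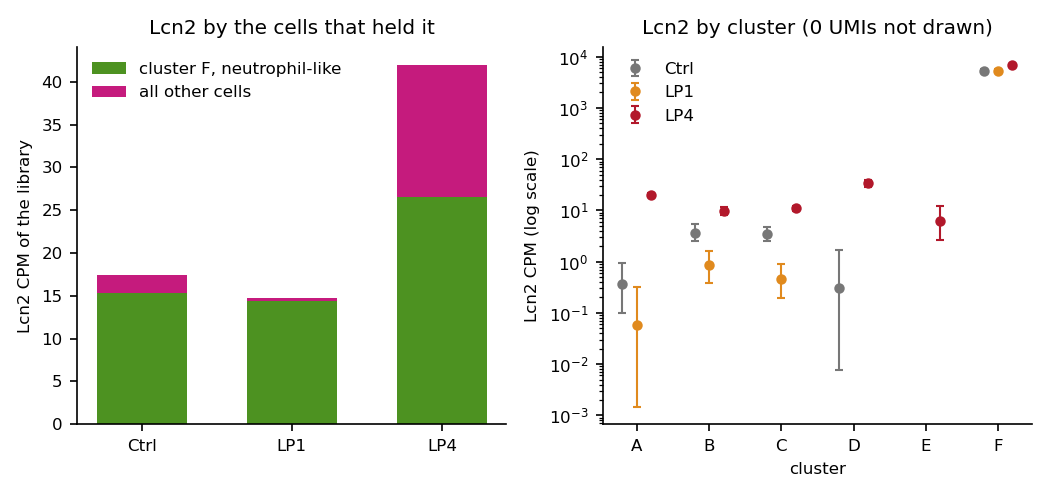
*Lcn2* by the cells that held it. Left, CPM of each library (y axis, from 0) split into neutrophil-like cluster F (green) and all other cells (magenta); right, CPM in each cluster (y axis, log scale) with exact Poisson 95% intervals for counting error, grey for Ctrl, orange for LP1 and red for LP4. The magenta part is largest in LP4, while cluster F lies between 5211 and 6813 CPM in the 3 libraries.

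Around these 9 genes, a list of 63 further genes of iron handling was followed, 39 of which reached 10 CPM in 1 library. In LP1, 4 of the 39 were at least 1.5-fold above Ctrl and 0 below, against 4.23% and 2.83% of all genes. They were *Snx3*, which returns the transferrin receptor from endosomes, and 3 genes of iron-sulfur cluster assembly, *Iscu* at a log2 ratio of 1.04, *Nfs1* at 0.85 and *Isca2* at 0.90. *Nfs1* and *Isca2* are outside the rule for named genes and were chosen after their values were seen. In LP4, 12 of the 39 were at least 1.5-fold above Ctrl and 5 below, against 20.0% and 23.1% of all genes. *Cp* and *Hp* reached 10 CPM through LP4 alone, and *Nfs1* and *Isca2* through LP1 and LP4, so for these genes the minimum and the higher level are not independent. The median of the 39 was -0.06, near the -0.08 over all genes.

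The shares of all genes past the limit in LP4, 20.0% higher and 23.1% lower, apply to each list below, and with 1 to 9 genes measured per list no count is read as particular to it. Among genes of uptake, 2 of 5 were higher and 1 lower in LP4. *Slc39a14*, which encodes the ZIP14 metal ion importer, was at 34.4, 36.6 and 146 CPM in Ctrl, LP1 and LP4, an LP4-to-Ctrl log2 ratio of 2.09 (2.00 to 2.18). *Snx3* was at 106, 191 and 209 CPM, so that most of its difference between LP4 and Ctrl was also found in LP1. Of 4 genes of iron chaperones and ferritin turnover, *Pcbp2* was higher in LP4, at a log2 ratio of 1.18 (1.14 to 1.23), and *Pcbp1* just under the limit at 0.57. Both encode proteins that deliver iron to ferritin. The 1.5-fold limit also separated the 2 measured genes of the export list. *Cp*, for the ferroxidase ceruloplasmin that works with ferroportin, was at 0.616, 0.515 and 10.4 CPM, on 22, 27 and 638 UMIs, with 637 of the LP4 UMIs outside F, and *Hfe* was at a log2 ratio of -0.46.

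Genes of heme handling mostly stayed within 1.5-fold, with 8 of 9 measured genes of heme uptake and breakdown inside the limit in LP4. The exception was *Hp*, for the hemoglobin-binding haptoglobin, at 9.58, 7.22 and 20.0 CPM. Cluster F held 254 of its 1230 LP4 UMIs and 82 of its 342 Ctrl UMIs. *Blvrb*, for a biliverdin reductase, was at -0.56. In heme synthesis 2 of 5 genes were lower in LP4, against 23.1% of all genes, *Alad* at a log2 ratio of -0.82 (-0.95 to -0.70) and *Urod* at -0.69 (-0.84 to -0.55), and none was higher.

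Of 9 measured genes of mitochondrial iron and iron-sulfur clusters, 4 were higher and 1 lower in LP4, against 20.0% and 23.1% of all genes. The largest difference was in *Slc25a37*, for the iron importer mitoferrin-1, at 18.5, 23.2 and 112 CPM and an LP4-to-Ctrl log2 ratio of 2.61 (2.49 to 2.72). *Iscu*, the scaffold of cluster assembly, was at 25.6, 52.5 and 68.4 CPM. The 4 measured regulators were all past 1.5-fold in LP4, 3 higher and 1 lower, against the same shares of all genes. *Fbxl5*, for the ubiquitin ligase subunit that removes IRP2, was at 21.3, 24.4 and 113 CPM, a log2 ratio of 2.40 (2.30 to 2.52), and *Hif1a* at 131, 123 and 534 CPM, a log2 ratio of 2.02 (1.98 to 2.07). The others were *Bach1*, a repressor of heme oxygenase and ferritin genes, at 1.10, and *Nfe2l2*, which encodes NRF2, an activator of ferritin genes, at -1.28. The genes so regulated did not share 1 direction. *Hmox1*, for heme oxygenase 1, was at 0.38 (0.33 to 0.43), *Fth1* at 0.34 and *Ftl1* at -0.30. A link between the regulators and these levels was not tested. *Bach1*, *Nfe2l2* and *Hmox1*, and the lower genes *Mcoln1* at -0.84 and *Hscb* at -0.60, were chosen after their values were seen. *Mcoln1* and *Hscb* reached 10 CPM through Ctrl and LP1 alone, so their lower level in LP4 and the minimum are not independent. *Bdh2* alone of 3 genes linked to siderophores was measured, at -0.07 (-0.22 to 0.07).

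For the 5 of the 9 genes that reached 50 CPM, the genes with the most similar pattern were sought over 15 points, clusters A to E in the 3 libraries, by Pearson correlation of log2(CPM + 1) with 3791 genes. The points of a library share its treatment and depth, so the values are descriptions. *Fth1* was most like *Rhob* (r = 0.92), *Wsb2* (0.87) and *Rnf13* (0.86). *Ftl1* was most like *Tm6sf1* (0.97), *Gusb* (0.92) and *Mpc2* (0.91). *Slc11a1* was most like *Itm2c* (0.93), *Slc6a6* (0.93) and *Mapk3* (0.93). *Slc11a2* was most like *Map2k4* (0.97), *Pfkfb3* (0.96) and *Acvr1b* (0.96), and *Tfrc* was most like *Fer* (0.92), *Cd93* (0.88) and *Atp6ap1* (0.86). The 2 ferritin genes were not among each other's 3 nearest. Across the single cells of a library, where both shares have the cell's total UMIs as denominator, *Fth1* and *Ftl1* had r of 0.56, 0.58 and 0.51 in Ctrl, LP1 and LP4, over 6071, 5065 and 4670 cells.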

How the data were processed

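RNA of single BMDMs was counted in 1 library each of Ctrl, LP1 and LP4. The deposited values are UMI counts per gene and barcode, which the authors made with Cell Ranger (7.1.0 per the labels) on mm10, without normalization. Only barcodes above 500 UMIs and 500 detected genes with a mitochondrial share below 5% entered, and their UMIs were summed and scaled to CPM. Intervals are exact Poisson for CPM, exact conditional binomial for ratios and exact binomial for shares, at 95%. A count of 0 was set to 3 and read as a bound. Shares of cells with a UMI were taken at 2000 UMIs drawn per cell; shallower cells (122 of Ctrl, 13 of LP1, 45 of LP4) were left out of them.

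Clusters came from 2000 variable genes that differed less than 1.5-fold between libraries, without iron genes, centred within library, with 30 principal components, 20 neighbours and Leiden clustering at resolution 0.5. Names need 3 markers among the 10 leading genes of at least 50 CPM, or 3 macrophage markers in 50% of cells. Scrublet marked 2 barcodes and so did not work, and no doublets were removed. Genes named are the 9 iron genes, the 2 genes of each iron list with the largest absolute log2 ratio of LP4 over Ctrl among those with at least 10 CPM, and the 3 most similar genes of each iron gene with at least 50 CPM. The iron genes and all lists were chosen with earlier results of these data known.

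Sums and intervals used scipy 1.17.1 under Python 3.11.15, clustering used scanpy 1.11.5 with leidenalg 0.10.2, and TMM factors came from edgeR 4.0.16. The ratios were tested on simulated Poisson counts, the model that the intervals assume, without spread between cells or libraries. That run checks the calculation only. With 1 library per condition no p-value is given. Alternatives were other cell filters, scalings, cell sets, fold limits and clusterings.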

Additional observations from a re-analysis of the deposited data

How the results depend on the processing

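No paired analysis was possible because each condition is 1 library. Of 297 recomputed log2 ratios of the 9 genes, 218 stayed within the counting interval and 79 moved, and 2 that were near 0 changed sign, *Ireb2* in LP1 over Ctrl with clusters A to C alone (-0.003) and *Tfrc* in LP4 over Ctrl without mitochondrial and ribosomal protein genes (-0.015). TMM and median-of-ratios scaling moved the median of all genes by 0.17 and 0.21 for LP4 over Ctrl, and the log2 ratio of *Fth1* then reached up to 0.55. Under either scaling 1 of the 9 genes was higher in LP1 (*Slc11a1*), 4 in place of 3 were higher in LP4 than in Ctrl (*Ireb2* added; median-of-ratios also added it to the 2 higher in LP4 than in LP1, making 3), and 0 were lower in LP4 against Ctrl or LP1, because *Slc40a1* fell under 10 CPM in every library; its LP4-to-Ctrl ratio stayed from -2.40 to -2.03 on the log2 scale under the 11 settings. *Lcn2* was 1 gene lower in LP1 with clusters A to C alone or without cluster F, and its log2 ratio of LP4 over Ctrl ranged from 0.65 with means of cell shares to 2.80 without F. Of the listed iron genes, the counts higher and lower in LP1 (4 and 0) became 8 and 3 without the CPM minimum, and the higher count became 1 at 2-fold and the lower count 1 with means of cell shares. In LP4 over Ctrl the 12 higher became 21 without the minimum. The 5 lower became 10 without it, 1 at 2-fold, 3 under TMM and under median-of-ratios scaling, and 8 with means of cell shares and with clusters A to C alone. In LP4 over LP1, 10 of the 39 were higher and 6 lower, against 16.3% and 18.5% of all genes. Without the minimum, when genes under 10 CPM also counted, the 10 higher became 19 and the 6 lower became 10. The 6 lower became 1 at 2-fold and 3 under median-of-ratios scaling. The cause of these shifts was not tested where no construction is named. Shares of all genes under the alternatives are not given. No count under them, of the 9 or of the listed genes, is thus read as a difference from all genes. Leaving out the stromal-like or the neutrophil-like cluster was chosen after seeing the data. Genes near 10 CPM rest on few UMIs, 134 for *Slc40a1* in LP4.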

Other observations

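Several listed iron genes stayed under 10 CPM in every library and so entered no count, but had few UMIs in Ctrl and LP1 and more in LP4. They were chosen after their values were seen. *Hamp*, the gene of hepcidin, the hormone that binds ferroportin and has it degraded, had 2, 1 and 73 UMIs in Ctrl, LP1 and LP4. The 73 UMIs lay in 21 of 4670 cells, 58 of them in 10 cells, with 22 in cluster A, 19 in B, 7 in C, 22 in D and 3 in E. The log2 ratio of LP4 over Ctrl was 4.41, with a counting interval from 2.50 to 7.48. *Steap4*, a ferric reductase gene, had 3, 1 and 97 UMIs, the 97 in 61 cells, 53 of them in cluster B, and 1 in neutrophil-like cluster F. *Ltf*, the gene of lactoferrin, which like *Lcn2* is stored in neutrophil granules, also stayed under 10 CPM but was not higher in LP4. It stood at 3.59, 2.61 and 3.26 CPM, an LP4-to-Ctrl log2 ratio of -0.14 (-0.47 to 0.19), and was chosen after its values were seen.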
